A study of Mus musculus with 26 samples.

Results

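Calca, Calcb, Tac1, Adcyap1, Gal and Nmb encode the main peptide messengers of nociceptors: the α and β forms of calcitonin gene-related peptide (CGRP), substance P with neurokinin A, pituitary adenylate cyclase-activating polypeptide (PACAP), galanin and neuromedin B. The 6 genes were taken by symbol from the authors' RPKM table of 38828 genes and linked by Ensembl identifier to the count table of 39017 genes. All 6 passed the filter on low counts, which left 17411 genes.

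Their RNA was measured in 26 libraries of 8 subtypes of mouse dorsal root ganglion neuron, sorted by fluorescence from adult reporter mice aged postnatal day 23 or more. Every subtype had 3 libraries except the Aβ RA-LTMRs, which had 5, and each library pooled ganglia of several mice and several sorts. Low-threshold mechanoreceptors (LTMRs) are the touch receptors of the skin. Grouped here against A-fibre subtypes were nonpeptidergic nociceptors (MrgD-EGFP), peptidergic nociceptors (CGRP-GFP) and C-LTMRs. The C-LTMRs were ThCreER;R26tdtomato(Ai14), given tamoxifen at 2 mg per day on postnatal days 13 to 14, or 14 to 15. The other 5 subtypes have A-fibres. Aδ-LTMRs were TrkBCreER;R26tdtomato(Ai14) with tamoxifen at 2 mg per day on embryonic days 12 to 13. Rapidly adapting Aβ RA-LTMRs were Npy2r-GFP. Slowly adapting Aβ SA1-LTMRs and Aβ Field-LTMRs were both TrkCCreER;Retf(GFP), the first with tamoxifen at 3 mg per day at E12.5 and the second with 2 mg per day on postnatal days 13 to 14, or 14 to 15. Proprioceptors, the muscle afferents, were PVIRESCre;R26tdtomato(Ai14) and came from thoracic ganglia alone. Subtypes given no tamoxifen were both nociceptor classes, Aβ RA-LTMRs and proprioceptors, so reporter line, tamoxifen and subtype cannot be told apart.

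Neuropeptides are cut from larger precursors, packed into dense-core vesicles, and released from both the central and the skin endings of a sensory neuron. CGRP and substance P released in the skin dilate vessels and make them leak, and in the spinal cord they modulate pain transmission; PACAP and neuromedin B have been tied to pain and to itch, and galanin is known to rise in injured sensory neurons. The classical split of nociceptors into peptidergic and nonpeptidergic cells rests on CGRP and substance P.

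The sequence before the start site is shown for members high in peptidergic nociceptors, because a cAMP response element is known from several neuropeptide promoters. RefSeq (GRCm38.p6) promoter entries matched 5 of the 6 members; Calcb had none. The 250 bases before each start were searched on both strands, and capitals mark the first part of the cAMP response element, TGACG, or its other strand, CGTCA. The whole stretch is given where it lies outside the annotated exons, and 25-base windows for Tac1. All are 5′ to 3′ on the gene's strand.
Calca, chr7:114636358-114636607, minus strand: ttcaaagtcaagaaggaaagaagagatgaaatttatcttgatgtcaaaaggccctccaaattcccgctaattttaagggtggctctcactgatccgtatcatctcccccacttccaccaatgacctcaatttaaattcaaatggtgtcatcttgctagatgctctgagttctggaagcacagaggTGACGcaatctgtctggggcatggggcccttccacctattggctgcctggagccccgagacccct
Adcyap1, chr17:93198767-93199016, plus strand: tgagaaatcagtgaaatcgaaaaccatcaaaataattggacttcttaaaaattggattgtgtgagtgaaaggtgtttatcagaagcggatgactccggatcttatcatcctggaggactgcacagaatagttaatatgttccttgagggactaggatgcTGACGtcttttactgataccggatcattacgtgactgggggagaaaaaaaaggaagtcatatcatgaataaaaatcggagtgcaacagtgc
Gal, chr19:3414545-3414794, minus strand: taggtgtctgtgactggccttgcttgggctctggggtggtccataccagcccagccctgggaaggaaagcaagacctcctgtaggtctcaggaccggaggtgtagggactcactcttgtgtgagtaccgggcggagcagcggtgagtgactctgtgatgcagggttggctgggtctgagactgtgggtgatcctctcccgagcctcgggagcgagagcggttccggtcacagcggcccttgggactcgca
Tac1, chr6:7554854-7554878, plus strand: cctaaaattgCGTCAtttcgaacac
Tac1, chr6:7555008-7555032, plus strand: tctacaggctCGTCAcgcctgagat
TGACG was found in Calca at -65 from the start site, in Tac1 at -197 and -43, and in Adcyap1 at -91, and was not found in Gal or Nmb. The same letters were in 17.77% of the 32851 mouse promoter entries, so a match is a description of the letters and not of a working site. The whole element TGACGTCA, which contains TGACG, was in 1.546% of entries and in no member's window. Of the other motifs searched, the E-box CACGTG (6.021% of entries) was in Tac1 at -61, and the Runx core TGTGGT (14.05%) was in Nmb at -105. The looser E-box CANNTG, which includes CACGTG, was in 66.22% of entries and in the windows of Tac1 and Calca.

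Depth did not limit these genes much: total counts ran from 10706522 to 66309214 per library, and the lowest count of a member was 20, for Gal in Aβ Field-LTMR library 2. Levels are counts scaled to library size and composition (CPM), so they compare a gene between libraries, and RPKM, which also divides by length, is used to compare genes with each other. Log2 fold changes (log2FC) with SE are from edgeR's quasi-likelihood test, the adjusted p was corrected over all 17411 genes by Benjamini-Hochberg, and a gene was called at an adjusted p under 0.05 with an absolute log2FC of at least 1. In libraries made from pools of cells, fewer cells of a kind and less RNA per cell cannot be told apart. Mrgprd, which marks nonpeptidergic nociceptors, stood at 1026 ± 195 CPM (SD, n = 3) in them and at 3.72 to 66.5 CPM on average elsewhere. Th and the vesicular transporter Slc17a8 were likewise highest in C-LTMRs and Pvalb in proprioceptors. Nefh, a marker of A-fibre subtypes, averaged 1518 to 3847 CPM in them. In peptidergic nociceptors Nefh averaged 561 CPM, against 141 CPM in nonpeptidergic nociceptors and 158 CPM in C-LTMRs. The share of A-fibre neurons in the peptidergic sort was not tested. Ntrk2 was highest in Aδ- and Aβ RA-LTMRs (523 and 440 CPM) and Ntrk3 in Aβ SA1- and Aβ Field-LTMRs (194 and 195 CPM). Ret, from the Retf(GFP) line of Aβ SA1- and Aβ Field-LTMRs, averaged 274 and 449 CPM in them. It was higher in C-LTMRs (1356 CPM), nonpeptidergic nociceptors (1231), Aβ RA-LTMRs (565) and peptidergic nociceptors (533). Runx3 stood at 76.4 CPM in proprioceptors and 61.9 CPM in Aβ SA1-LTMRs. Npy2r was higher in peptidergic nociceptors (52.9 CPM) than in the Npy2r-GFP sort of Aβ RA-LTMRs (20.4 CPM), where Calb1, another gene of these cells, stood at 371 CPM.

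All 6 peptide genes differed among the 8 subtypes in the F test, which 78.3% of all genes also passed. Calca, Tac1, Adcyap1 and Gal were highest in peptidergic nociceptors, whereas Calcb and Nmb were highest in nonpeptidergic nociceptors. The adjusted p of the F test was 5.0e-10 for Calca, 1.6e-12 for Calcb, 4.4e-12 for Tac1, 8.2e-14 for Adcyap1, 3.7e-08 for Gal and 4.2e-11 for Nmb.

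**Figure D1:**
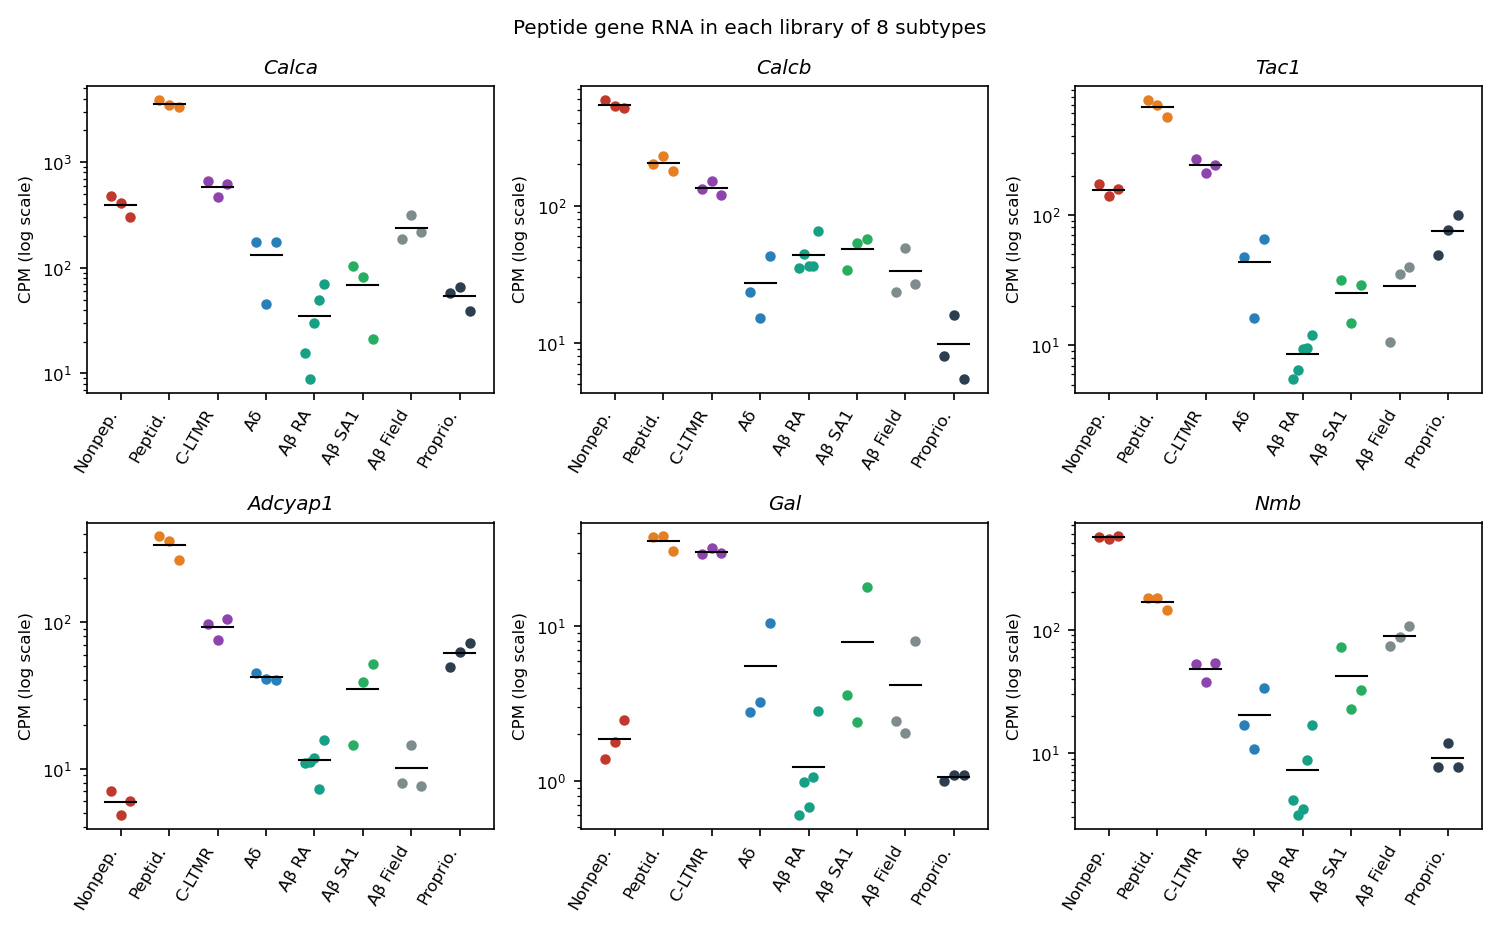
CPM of each of the 6 peptide genes (vertical log axis) in the 26 libraries, grouped by subtype; points are libraries and lines are subtype means. Calca, Tac1 and Adcyap1 peak in peptidergic nociceptors, Calcb and Nmb in nonpeptidergic nociceptors, and Gal stands at 35.7 CPM in peptidergic nociceptors and 30.4 CPM in C-LTMRs.

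Calca (ENSMUSG00000030669, chromosome 7, 114631478 to 114636357, minus strand, GRCm38/mm10) encodes α-CGRP and, by alternative splicing, calcitonin; counts per gene do not separate these transcripts. In peptidergic nociceptors the libraries held 3885, 3444 and 3339.8 CPM, which ranks Calca 5 of 38828 genes by mean RPKM there. These were the 3 highest of the 26 libraries, but the cells had been sorted by a CGRP reporter, so this level partly restates the sort. C-LTMRs held 662, 467 and 618 CPM of Calca. Nonpeptidergic nociceptors held 474, 410.4 and 303 CPM. The ranges of these 2 subtypes overlapped and the levels were not called different (log2FC 0.56, SE 0.57, adjusted p = 0.479), so Calca RNA was present in both at over 300 CPM in every library. Among A-fibre subtypes Calca was highest in Aβ Field-LTMRs, at 188, 313 and 217 CPM. Aδ-LTMRs held 175, 45.1 and 176 CPM. Aβ SA1-LTMRs held 104, 82.04 and 21.3 CPM. Aδ library 2 and Aβ SA1 library 3 were thus far below the other libraries of their subtype. Proprioceptors held 57.7, 66.1 and 38.7 CPM. The 5 Aβ RA-LTMR libraries held 15.6, 8.85, 30.1, 49.8 and 70.7 CPM. The ranges of these last 2 subtypes overlapped, and Aβ RA-LTMRs had the lowest mean.

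The order of mean Calca levels was peptidergic nociceptors (3556 ± 289 CPM), C-LTMRs (582 ± 103), nonpeptidergic nociceptors (396 ± 86.4), Aβ Field-LTMRs (239 ± 65.5), Aδ-LTMRs (132 ± 75.4), Aβ SA1-LTMRs (69.2 ± 43.02), proprioceptors (54.2 ± 14.02) and Aβ RA-LTMRs (35.02 ± 25.4, SD, n = 3 libraries or 5 for Aβ RA). Of the 7 steps between neighbours in this order the first was called, from peptidergic nociceptors to C-LTMRs (log2FC 2.61, SE 0.60, adjusted p = 0.00324), and the other 6 were not. Over all 28 pairs of subtypes Calca was called in 19, while a gene was called in 21.8% of tests over all genes and pairs. Aβ Field-LTMRs exceeded Aβ RA-LTMRs (log2FC 2.78, SE 0.51, adjusted p = 3.9e-04), although both are Aβ touch receptors. Mrgprd stood at 66.3, 83.1 and 18.2 CPM in the Aβ Field-LTMR libraries, and its part in the Calca level there was not tested.

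Calcb (ENSMUSG00000030666, chromosome 7, 114718643 to 114723365, plus strand) encodes β-CGRP and lies beside Calca on the same chromosome. It is a near copy of Calca over part of its length, so reads that match both genes could have been split or dropped by the authors' counting. Calcb was highest in nonpeptidergic nociceptors, at 587, 527 and 514 CPM. Peptidergic nociceptors held 201, 229 and 179 CPM. C-LTMRs held 133, 150.3 and 120.2 CPM. These 3 subtypes did not overlap with each other or with any A-fibre library. Aβ SA1-LTMRs followed at 34.2, 53.5 and 57.5 CPM. Aβ RA-LTMRs held 35.2, 44.5, 36.5, 36.5 and 65.6 CPM. Aβ Field-LTMRs held 23.6, 49.3 and 26.7 CPM. These 3 Aβ subtypes overlapped, with none of the steps between them called. Aδ-LTMRs held 23.4, 15.1 and 43.3 CPM. Proprioceptors held 8.07, 15.96 and 5.48 CPM and had the lowest mean.

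Nonpeptidergic nociceptors exceeded each of the other 7 subtypes in Calcb, with the smallest difference from peptidergic nociceptors (log2FC 1.42, SE 0.35, adjusted p = 0.00233). The next step, from peptidergic nociceptors to C-LTMRs, was not called (log2FC 0.59, SE 0.35, adjusted p = 0.31) although the libraries did not overlap. C-LTMRs exceeded Aβ SA1-LTMRs (log2FC 1.47, SE 0.35, adjusted p = 0.00159), a call that was lost once the range of read lengths was a term of the fit (log2FC 1.07, adjusted p = 0.0741). Reads were of 25 to 50 bases in all Aβ SA1-LTMR libraries and in Aβ RA-LTMR libraries 1 to 3. Aδ-LTMR libraries 1 and 2 had 15 to 51 bases, and all other libraries 15 to 50. Every Aβ SA1-LTMR library had the same range, so that term rests on Aβ RA-LTMRs, and subtype and range cannot be told apart in Aβ SA1-LTMRs. Aδ-LTMRs exceeded proprioceptors (log2FC 1.47, SE 0.36, adjusted p = 0.00346), and without Aδ-LTMR library 3 this fell under the fold minimum (log2FC 0.97, adjusted p = 0.0358). Calcb was called in 21 of the 28 pairs.

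Per length, the balance of the CGRP genes turned over between the nociceptor classes. The ratio of Calca to Calcb in RPKM was 16.6 ± 2.18 in peptidergic nociceptors (SD, n = 3) and 0.655 ± 0.106 in nonpeptidergic nociceptors, where every library had more Calcb than Calca. It was 4.05 ± 1.03 in C-LTMRs, 4.53 ± 2.11 in Aδ-LTMRs, 5.69 ± 1.78 in proprioceptors and 6.87 ± 1.05 in Aβ Field-LTMRs. In Aβ RA-LTMRs the ratio ran from 0.191 to 1.31 over 5 libraries, and in Aβ SA1-LTMRs from 0.346 to 2.93 over 3. Libraries on both sides of equality occurred in these 2 subtypes, so neither CGRP gene led in all of their libraries. The ratio is a description with no test.

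**Figure D2:**
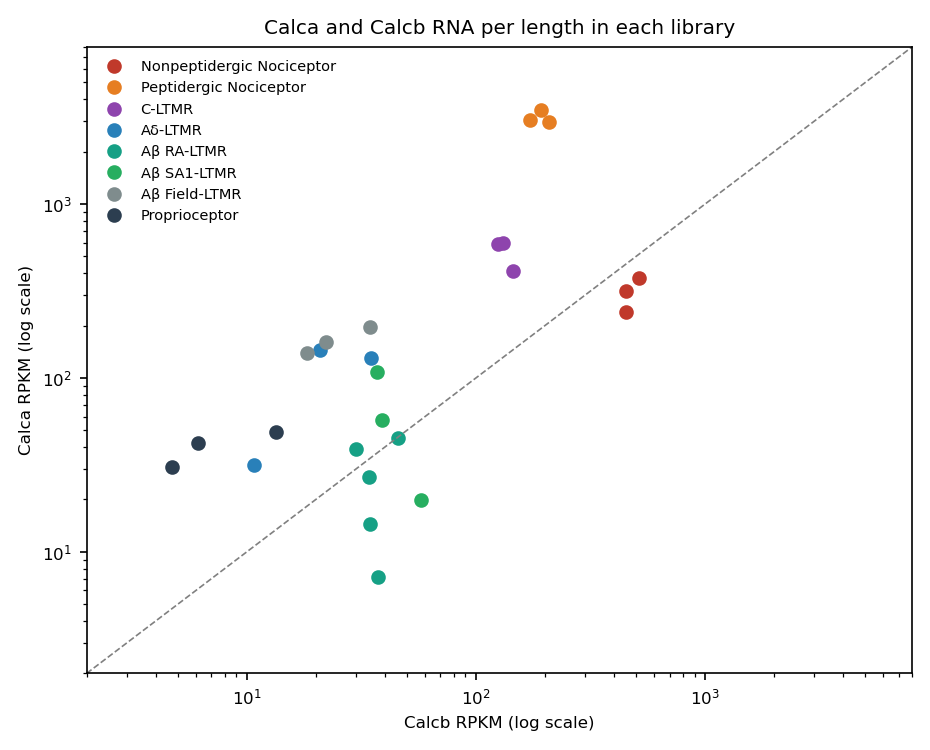
RPKM of Calcb (horizontal log axis) and Calca (vertical log axis) in each library, coloured by subtype; the dashed line marks equal RPKM. All 3 nonpeptidergic nociceptor libraries lie under the line, and the 3 peptidergic nociceptor libraries lie above it at ratios of 14.1 to 18.1.

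Tac1 (ENSMUSG00000061762, chromosome 6, 7554879 to 7565834, plus strand) encodes the precursor of substance P and neurokinin A, the tachykinins of peptidergic nociceptors. Peptidergic nociceptors held 759, 690.3 and 563 CPM. C-LTMRs held 267, 209 and 241 CPM. Nonpeptidergic nociceptors held 172, 138 and 157 CPM. None of these libraries overlapped between subtypes, and all 9 were above every A-fibre library. Proprioceptors came next, at 49.5, 76.3 and 100.4 CPM. Aδ-LTMRs held 47.8, 16.2 and 65.5 CPM. Aβ Field-LTMRs held 10.6, 35.5 and 39.6 CPM. Proprioceptors and Aδ-LTMRs overlapped, as did Aδ- and Aβ Field-LTMRs. Aβ SA1-LTMRs held 31.8, 14.7 and 28.8 CPM. The 5 Aβ RA-LTMR libraries held 5.53, 6.46, 9.43, 9.55 and 12.1 CPM and lay under every Aβ SA1-LTMR library.

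For Tac1 the step from peptidergic nociceptors to C-LTMRs was called (log2FC 1.49, SE 0.42, adjusted p = 0.0143). It lost the call without any of 3 libraries, with adjusted p = 0.0543 without peptidergic library 1, 0.0756 without C-LTMR library 2 and 0.052 without C-LTMR library 3. The call was also lost with the level of satellite glial genes as a covariate (adjusted p = 0.139), with no filter on low counts (0.0538) and with limma on log2(RPKM + 1) without a filter (0.0678). C-LTMRs and nonpeptidergic nociceptors were not called different (log2FC 0.62, SE 0.41, adjusted p = 0.255). Nonpeptidergic nociceptors exceeded proprioceptors narrowly (log2FC 1.04, SE 0.41, adjusted p = 0.0424), and that call ended under 7 of the 26 removals of 1 library, at log2FC 0.79 (adjusted p = 0.193) without proprioceptor library 1. It also ended with the glial covariate (adjusted p = 0.456), with no filter on low counts (0.123) and with limma without a filter (0.0853). Proprioceptors in turn exceeded Aβ RA-LTMRs (log2FC 3.14, SE 0.37, adjusted p = 9.1e-07), as did Aβ SA1-LTMRs (log2FC 1.55, SE 0.36, adjusted p = 0.00524), the latter not with the glial covariate (log2FC 1.95, adjusted p = 0.111). Tac1 was called in 23 of the 28 pairs, and Aβ RA-LTMRs differed from each of the other 7 subtypes.

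Adcyap1 (ENSMUSG00000024256, chromosome 17, 93199017 to 93206537, plus strand) encodes PACAP. It was highest in peptidergic nociceptors, at 384, 359 and 265 CPM, and C-LTMRs followed at 97.1, 76.05 and 106 CPM. Nonpeptidergic nociceptors were at the bottom of the order, with 7.06, 4.81 and 6.03 CPM in their libraries. The nociceptor classes were thus at opposite ends for Adcyap1, which was so for none of the other 5 members. Proprioceptors held 49.3, 62.6 and 72.2 CPM. Aδ-LTMRs held 45.1, 40.9 and 40.5 CPM. Aβ SA1-LTMRs held 14.5, 39.3 and 51.8 CPM, with library 1 far below the other 2. Aβ RA-LTMRs held 10.97, 11.2, 11.8, 7.33 and 15.8 CPM. Aβ Field-LTMRs held 8.01, 14.5 and 7.63 CPM. These last 2 subtypes overlapped, and no Aβ Field-LTMR library overlapped with a nonpeptidergic one.

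The step from peptidergic nociceptors to C-LTMRs was called for Adcyap1 (log2FC 1.85, SE 0.32, adjusted p = 1.4e-04), as was that from Aβ SA1- to Aβ RA-LTMRs (log2FC 1.62, SE 0.28, adjusted p = 2.6e-04), and the 5 other steps between neighbours were not. C-LTMRs exceeded nonpeptidergic nociceptors (log2FC 3.96, SE 0.35, adjusted p = 2.4e-09). Proprioceptors (log2FC 3.36, SE 0.35, adjusted p = 9.3e-09) and Aδ-LTMRs (log2FC 2.82, SE 0.34, adjusted p = 1.8e-07) did so too. With the level of satellite glial genes as a covariate these last 2 differences shrank to log2FC 0.52 (adjusted p = 0.827) and 0.55 (adjusted p = 0.758). Adcyap1 was called in 21 of the 28 pairs.

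Gal (ENSMUSG00000024907, chromosome 19, 3409915 to 3414544, minus strand) encodes galanin. Peptidergic nociceptors held 37.9, 38.2 and 30.9 CPM. C-LTMRs held 29.4, 31.98 and 29.97 CPM. These 2 subtypes overlapped and stood above all other libraries, and the difference between them was not called (log2FC 0.23, SE 0.60, adjusted p = 0.894). Nonpeptidergic nociceptors held 1.39, 1.78 and 2.47 CPM, within the range of the A-fibre subtypes. Aβ SA1-LTMRs held 3.57, 2.40 and 17.9 CPM, with library 3 well above the other 2. In Aδ-LTMRs, at 2.79, 3.23 and 10.5 CPM, and in Aβ Field-LTMRs, at 2.45, 2.03 and 8.05 CPM, library 3 was also the highest. Proprioceptors held 0.998, 1.09 and 1.10 CPM. The 5 Aβ RA-LTMR libraries held 0.599, 0.983, 0.681, 1.07 and 2.84 CPM, with library 5 apart from the rest.

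Galanin RNA is known to rise after nerve injury, so genes of injured neurons were read beside it. In Aβ SA1-LTMR library 3 the injury genes Sprr1a (22.9 CPM) and Npy (14.6 CPM) were at their highest of the 26 libraries, and in library 2, where Gal was 2.40 CPM, Sprr1a stood at 11.3 CPM. Atf3, another injury gene, went differently. It was at 18.6, 35.4 and 40.7 CPM in the Aβ SA1-LTMR libraries and at 161, 108 and 98.6 CPM in those of peptidergic nociceptors. The summed level of 8 injury genes ran from 174 to 300.0 CPM in Aβ SA1-LTMRs, 307 to 398 in peptidergic nociceptors, 132 to 153 in C-LTMRs, 136 to 242 in nonpeptidergic nociceptors, 149 to 216 in Aδ-LTMRs, 152 to 306 in Aβ RA-LTMRs, 202 to 257 in Aβ Field-LTMRs and 267 to 339 in proprioceptors, with Npy at 0 in every nonpeptidergic and Aβ RA-LTMR library. Their part in the Gal levels was not tested. For Gal the step from C-LTMRs to Aβ SA1-LTMRs was the single one called between neighbours (log2FC 1.93, SE 0.62, adjusted p = 0.0154). It was lost without Aβ SA1-LTMR library 1 (adjusted p = 0.0725) or library 2 (adjusted p = 0.0693), with no filter on low counts (adjusted p = 0.0514), and after a term for the range of read lengths was added (log2FC 0.53, adjusted p = 0.659). Gal was called in 20 of the 28 pairs.

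Nmb (ENSMUSG00000025723, chromosome 7, 80902227 to 80905076, minus strand) encodes neuromedin B, a peptide of the bombesin family. The annotated span of Sec11a overlaps Nmb on the same strand, so counts of reads from shared bases are uncertain. Nmb was highest in nonpeptidergic nociceptors, at 564, 546 and 569 CPM, and ranked 17 of 38828 genes by mean RPKM there. Peptidergic nociceptors held 179.9, 179 and 143 CPM. Aβ Field-LTMRs came next, at 73.8, 86.99 and 107 CPM. These 3 subtypes did not overlap with each other, and Nmb was the 1 member for which an A-fibre subtype stood above C-LTMRs in mean level. C-LTMRs held 53.1, 37.8 and 53.2 CPM. Aβ SA1-LTMRs held 71.7, 22.5 and 32.5 CPM. Aδ-LTMRs held 16.9, 10.7 and 33.8 CPM. Aβ SA1-LTMRs overlapped with both C- and Aδ-LTMRs. Proprioceptors held 7.76, 11.97 and 7.71 CPM. The 5 Aβ RA-LTMR libraries held 4.17, 3.12, 3.50, 8.75 and 16.7 CPM, and these 2 lowest subtypes overlapped.

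The step from nonpeptidergic to peptidergic nociceptors was called for Nmb (log2FC 1.74, SE 0.49, adjusted p = 0.00625), and none of the 6 further steps between neighbours was. Aβ Field-LTMRs exceeded Aβ RA-LTMRs (log2FC 3.64, SE 0.44, adjusted p = 1.7e-06) and proprioceptors (log2FC 3.28, SE 0.52, adjusted p = 3.5e-05) but were not called different from C-LTMRs (log2FC 0.90, SE 0.48, adjusted p = 0.17). Mrgprd, the marker of the subtype with the most Nmb, averaged 55.9 CPM in Aβ Field-LTMRs, 32.4 in Aδ-LTMRs, 16.6 in Aβ SA1-LTMRs, 8.39 in Aβ RA-LTMRs and 3.72 in proprioceptors. In the Aβ Field-LTMR libraries Mrgprd stood at 66.3, 83.1 and 18.2 CPM, beside Nmb at 73.8, 86.99 and 107 CPM. The part of Mrgprd in the Nmb level was not tested. Nmb was called in 20 of the 28 pairs.

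The comparison of the nociceptor classes asks how far the classical split by peptide content holds for each gene. All 6 members were called, where 26.3% of all genes were: Calca, Tac1, Adcyap1 and Gal higher in peptidergic nociceptors (15.3% of all genes were) and Calcb and Nmb lower (10.9%). Adcyap1 differed most (log2FC 5.81, SE 0.39, adjusted p = 1.5e-11), followed by Gal (log2FC 4.24, SE 0.69, adjusted p = 3.2e-05). Calca, whose reporter defined the sort, came after them (log2FC 3.17, SE 0.62, adjusted p = 2.8e-04). Tac1 differed least of the 4 (log2FC 2.11, SE 0.43, adjusted p = 3.6e-04). Calcb (log2FC -1.42, SE 0.35, adjusted p = 0.00233) and Nmb (log2FC -1.74, SE 0.49, adjusted p = 0.00625) went the other way. The median log2FC of the 6 was 2.64, against 0.03 over all genes.

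Genes of satellite glia, the cells that wrap sensory neurons, moved with this comparison: 8 of 10 on the list were called higher in peptidergic nociceptors and none lower, and their summed level was 368 to 469.5 CPM in nonpeptidergic and 864 to 1320.3 CPM in peptidergic nociceptors. Every gene on that list was detected in every subtype, with S100b at 14.9 CPM in nonpeptidergic and 165 CPM in peptidergic nociceptors. With their mean log2 level as a covariate 2 of the 6 members stayed called, Calcb and Adcyap1. Calca (log2FC 2.67, adjusted p = 0.146), Tac1 (log2FC 1.505, adjusted p = 0.268), Gal (log2FC 3.00, adjusted p = 0.134) and Nmb (log2FC -2.24, adjusted p = 0.15) kept their direction but not the call. Of other lists, 4 of 7 fibroblast genes were also called higher in peptidergic nociceptors (14.8 to 22.2 against 77.01 to 84.5 CPM summed), as were 3 of 8 endothelial genes (1.80 to 3.81 against 7.40 to 9.58 CPM) and 1 of 8 Schwann cell genes, with none lower. The summed Schwann cell level ran the other way, at 1793 to 1890 CPM in nonpeptidergic and 968 to 1079 CPM in peptidergic nociceptors. Most of it was Pmp22 (1785 and 923 CPM on average). Of 4 tested macrophage genes 1 was called higher and 1 lower. The part of these lists in the members' differences was not tested.

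C-LTMRs were set against the mean of both nociceptor classes on the log2 scale. Of the 6 members 4 were called, against 12.6% of all genes. Gal (log2FC 1.89, SE 0.50, adjusted p = 0.00765) and Adcyap1 (log2FC 1.05, SE 0.26, adjusted p = 0.00457) were higher in C-LTMRs, as were 7.83% of all genes. Nmb (log2FC -2.67, SE 0.47, adjusted p = 1.3e-04) and Calcb (log2FC -1.30, SE 0.32, adjusted p = 0.00346) were lower, as were 4.79%. Calca (log2FC -1.03, SE 0.51, adjusted p = 0.176) and Tac1 (log2FC -0.44, SE 0.36, adjusted p = 0.447) were not called. The Adcyap1 value lies near the fold minimum: it fell to log2FC 0.99 without nonpeptidergic library 2, 0.98 without peptidergic library 3 and 0.95 without C-LTMR library 3, and was 0.89 with the glial covariate and 0.93 with limma on log2(RPKM + 1). Since the nociceptor classes stood at opposite ends for Adcyap1, C-LTMRs exceeded the mean while lying between the classes, as the level of 92.9 ± 15.2 CPM against 5.97 ± 1.13 and 336 ± 62.6 CPM shows (SD, n = 3). Gal in C-LTMRs likewise exceeded the mean while its own mean lay between those of the classes. It was 30.4 ± 1.36 CPM, against 1.88 ± 0.547 in nonpeptidergic and 35.7 ± 4.11 CPM in peptidergic nociceptors (SD, n = 3). The median log2FC of the 6 was -0.73, against -0.00093 over all genes.

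Set against the mean of the 5 A-fibre subtypes, nociceptors and C-LTMRs together were higher for all 6 members, where 28.5% of all genes were called and 12.9% were called higher. Calca (log2FC 3.48, SE 0.29, adjusted p = 3.2e-10), Tac1 (log2FC 3.34, SE 0.21, adjusted p = 5.1e-13) and Calcb (log2FC 3.11, SE 0.17, adjusted p = 5.2e-14) differed most. Peptidergic nociceptors had been sorted by a CGRP reporter, so the Calca value partly restates the sort. Nmb (log2FC 2.91, SE 0.24, adjusted p = 1.4e-10) and Gal (log2FC 2.08, SE 0.31, adjusted p = 3.0e-06) were next. Adcyap1 differed least (log2FC 1.18, SE 0.16, adjusted p = 4.9e-07), with nonpeptidergic nociceptors under every A-fibre library on the side that was higher on average. Gal in nonpeptidergic nociceptors was also lower than in Aδ-LTMRs (log2FC -1.56, SE 0.64, adjusted p = 0.0495) and Aβ SA1-LTMRs (log2FC -2.08, SE 0.64, adjusted p = 0.00989). The median log2FC of the 6 was 3.01, against -0.02 over all genes. The satellite glial genes ran the other way, with 7 of 10 called lower and sums of 681 to 827 CPM in C-LTMRs and 1579 to 5061 CPM over the A-fibre libraries. With them as a covariate Gal just missed the threshold (log2FC 3.18, adjusted p = 0.0521) and the other 5 members stayed called. The 3 comparisons share libraries and are not independent of each other.

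**Figure D3:**
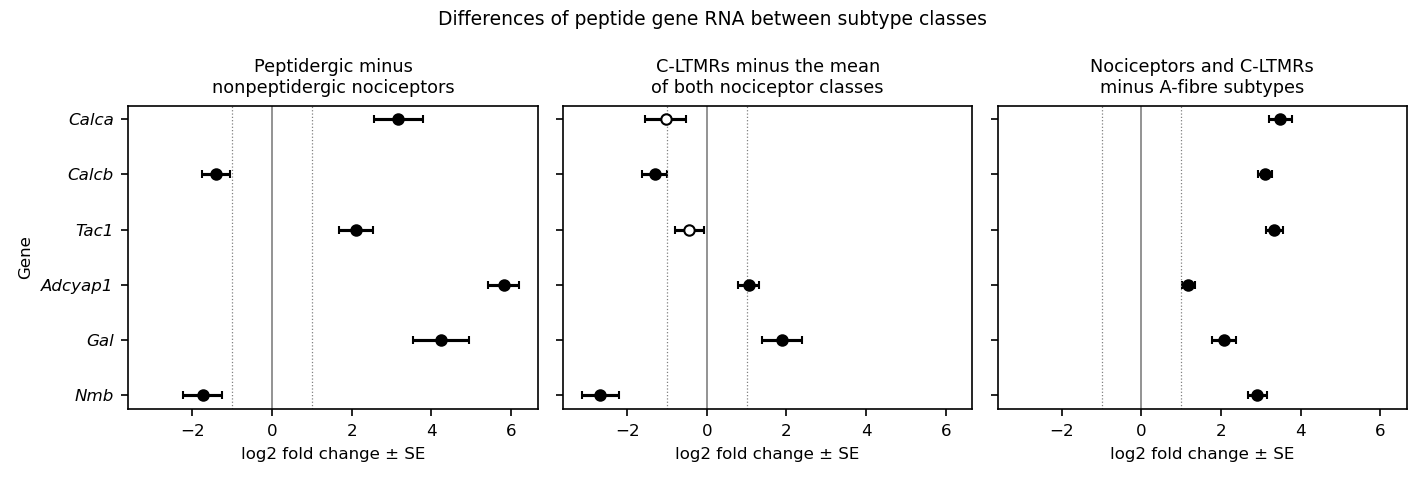
Log2 fold change with its SE (horizontal axis) of the 6 peptide genes in 3 comparisons of subtype classes; filled points were called, open points were not, and dotted lines mark the fold minimum of 1 on the log2 scale. All 6 genes are filled on the right, and Calca and Tac1 are open in the middle.

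Per length, the leading peptide RNA changed from subtype to subtype. Shares are of the summed RPKM of the 6 genes, averaged over libraries with the SD (n = 3, or 5 for Aβ RA-LTMRs), with no test. In peptidergic nociceptors Calca made up 67.6% ± 2.14, Tac1 15.02% ± 0.850 and Nmb 9.33% ± 0.786 of a sum of 4678 ± 436 RPKM. In nonpeptidergic nociceptors Nmb made up 61.6% ± 3.02, Calcb 19.4% ± 0.692 and Calca 12.7% ± 2.43 of 2434 ± 108 RPKM. The cells named nonpeptidergic thus held a larger sum in every library than any C-LTMR library did, most of it from Nmb and Calcb. C-LTMRs had a sum of 1149 ± 159 RPKM, led by Calca at 46.2% ± 2.86 and Tac1 at 22.3% ± 0.739. In these 3 subtypes Gal made up at most 5.37% ± 0.926 and Adcyap1 at most 2.79% ± 0.188, both in C-LTMRs.

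In the A-fibre subtypes the sum was far lower, from 90.8 ± 30.5 RPKM in Aβ RA-LTMRs to 434 ± 94.1 in Aβ Field-LTMRs. Nmb led in Aβ Field-LTMRs (48.9% ± 2.45) with Calca behind it (38.6% ± 4.60). Calca led in Aδ-LTMRs (39.97% ± 9.48), Calcb in Aβ RA-LTMRs (42.7% ± 12.4), Nmb in Aβ SA1-LTMRs (36.3% ± 13.5) and Tac1 in proprioceptors (42.1% ± 11.5). The share of Adcyap1 was highest in proprioceptors, at 10.8% ± 2.19, and that of Gal in Aβ SA1-LTMRs, at 5.58% ± 6.60, where library 3 held 13.2%. The leading gene was not the same in all libraries of Aδ-LTMRs, Aβ RA-LTMRs, Aβ SA1-LTMRs and proprioceptors, and was the same in every library of the other 4 subtypes. The length behind an RPKM, read as count over RPKM, varied between libraries by up to 2.45 times for Adcyap1 and 2.06 times for Nmb. With 1 fixed exon length per gene in place of it, Calca led in Aβ Field-LTMRs (47.6% against 38.4% for Nmb) and in proprioceptors (35.4% against 24.4% for Tac1). In the other 6 subtypes the leading gene was the same by both lengths.

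**Figure D4:**
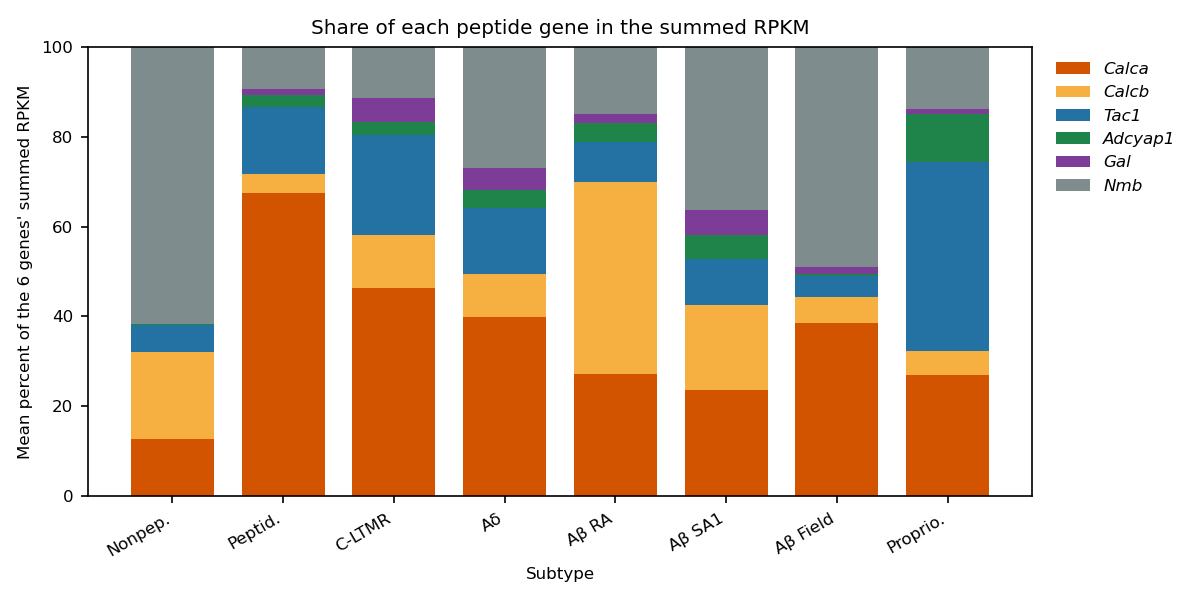
Mean share of each peptide gene in the summed RPKM of the 6 (vertical axis, percent), stacked for each of the 8 subtypes. Calca fills 67.6% of the peptidergic bar and Nmb 61.6% of the nonpeptidergic bar.

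Receptors for these peptides were read from a list of 18 genes, of which 14 were tested and Galr3 was not analysed here. In peptidergic minus nonpeptidergic nociceptors their median log2FC was 2.06, against 0.03 over all genes. The called receptors were 7 higher in peptidergic nociceptors (15.3% of all genes were) and 0 lower (10.9%). Of those called, Galr1 and Calcrl alone averaged at least 5 CPM there. Apart from these and Crcp, the receptors read averaged at most 1.22 CPM in either nociceptor class. The count and the median thus rest mostly on genes near 0 CPM. Galr1, a galanin receptor, stood at 46.3 ± 12.03 CPM in peptidergic and 0.993 ± 0.650 CPM in nonpeptidergic nociceptors. Its difference was log2FC 5.56 (SE 0.79, adjusted p = 4.6e-06). The same subtype thus had the highest mean level of both Gal and Galr1. Its Gal level was not called different from that of C-LTMRs (log2FC 0.23, SE 0.60, adjusted p = 0.894), where Galr1 averaged 6.87 CPM. Calcrl, the core of the CGRP receptor, rose from 1.33 ± 0.276 to 8.92 ± 1.46 CPM (log2FC 2.75, SE 0.56, adjusted p = 4.1e-04), while its partner Ramp1 averaged at most 0.347 CPM in any subtype, in proprioceptors. Calcrl stood higher still in Aδ-LTMRs (12.2 ± 6.94 CPM), which also had the most RNA of the 8 endothelial genes read (39.5 to 70.9 CPM summed, against 1.80 to 19.0 CPM in all other libraries). Endothelial genes were also higher in peptidergic than in nonpeptidergic nociceptors, and their part in the Calcrl levels was not tested. Tacr1, the substance P receptor, averaged at most 0.550 CPM and Nmbr, the neuromedin B receptor, at most 0.175 CPM.

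Against A-fibre subtypes 1 receptor was called higher in nociceptors and C-LTMRs, Galr1 (log2FC 2.99, SE 0.35, adjusted p = 5.2e-08), and 5 were lower, with a median log2FC of -0.35. Over all genes 12.9% were called higher and 15.6% lower. With the glial covariate the Galr1 call was lost (log2FC 2.80, adjusted p = 0.133). Tacr3, a tachykinin receptor, stood at 16.6 ± 5.57 CPM in Aβ RA-LTMRs and 12.2 ± 4.14 CPM in Aδ-LTMRs. It stood at 0.0265 to 0.240 CPM in both nociceptor classes and C-LTMRs (log2FC -5.45, SE 0.41, adjusted p = 1.6e-11). Adcyap1r1, the PACAP receptor, stood at 15.1 ± 0.0483 CPM in proprioceptors and 11.8 ± 3.22 CPM in Aβ SA1-LTMRs against 0.286 to 0.415 CPM in those 3 (log2FC -4.01, SE 0.38, adjusted p = 1.6e-09). These receptors of tachykinins and PACAP were thus higher in A-fibre subtypes, where Tac1 and Adcyap1 themselves were lower on average. By subtype, Tacr3 was highest in Aβ RA-LTMRs, which had the least Tac1 (8.61 CPM). For PACAP the contrast did not hold by subtype. Proprioceptors, with the most Adcyap1r1, held 61.4 CPM of Adcyap1, and nonpeptidergic nociceptors were lowest for both (0.286 and 5.97 CPM). With limma on log2(RPKM + 1), a scale that shrinks the changes of low genes, Tacr3 (log2FC -0.88) and Adcyap1r1 (log2FC -0.86) stayed lower but under the fold minimum. In C-LTMRs against nociceptors 4 receptors were called higher (7.83% of all genes were) and 1 lower (4.79%), with a median log2FC of 0.61. Apart from Crcp and Galr1, no receptor read averaged over 2.62 CPM in C-LTMRs.

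Genes of peptide processing and dense-core vesicles, 29 tested of 30, were called in both directions. Between the nociceptor classes 8 were higher (15.3% of all genes were) and 4 lower (10.9%) in peptidergic cells, with a median log2FC of -0.05. The lower calls were thus near the share over all genes. Qpct, which caps peptides with pyroglutamate (log2FC 4.93, SE 0.62, adjusted p = 6.9e-07), and the vesicle membrane proteins Ptprn2 (log2FC 3.69, SE 0.28, adjusted p = 1.2e-10) and Ptprn (log2FC 3.62, SE 0.27, adjusted p = 8.3e-11) rose most. Scg3, a granin that sorts cargo to vesicles, fell from 2679 to 633 CPM (log2FC -2.08, SE 0.15, adjusted p = 8.3e-11), and the calcium sensor Syt7 (log2FC -1.80, SE 0.35, adjusted p = 2.5e-04) and the Rab effector Rph3a (log2FC -1.32, SE 0.20, adjusted p = 1.3e-05) fell as well. With satellite glial genes as a covariate Qpct, Syt7 and Rph3a lost their calls (adjusted p = 0.0696, 0.057 and 0.215).

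Against A-fibre subtypes 7 of these genes were higher (12.9% of all genes were) and 6 lower (15.6%) in nociceptors and C-LTMRs. Their median log2FC was -0.15. Syt7 (log2FC 3.02, SE 0.17, adjusted p = 7.3e-14), the fusion protein Stx1a (log2FC 2.35, SE 0.18, adjusted p = 2.2e-11) and Scg3 (log2FC 1.96, SE 0.07, adjusted p = 4.2e-17) were higher. The precursor convertases Pcsk6 (log2FC -4.79, SE 0.28, adjusted p = 9.1e-14) and Pcsk5 (log2FC -1.997, SE 0.21, adjusted p = 1.1e-08) and the granin Chgb (log2FC -1.83, SE 0.12, adjusted p = 1.7e-12) were lower. Stx1a and Pcsk5 lost their calls with the glial covariate (adjusted p = 0.0929 and 0.272). With limma on log2(RPKM + 1) Pcsk6 (log2FC -0.996) and Pcsk5 (log2FC -0.60) were lower but under the fold minimum. In C-LTMRs against nociceptors 5 were higher (7.83% of all genes were) and 3 lower (4.79%), with a median log2FC of 0.00058.

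Peptidases are enzymes that degrade released peptides, and 9 were tested. In peptidergic against nonpeptidergic nociceptors 4 were higher (15.3% of all genes were) and 0 lower (10.9%), with a median log2FC of 0.47. Mme, the neprilysin that cuts substance P, stood at 10.9 against 0.933 CPM (log2FC 3.52, SE 0.40, adjusted p = 1.4e-07). Prep (log2FC 1.25, SE 0.22, adjusted p = 7.2e-05) and Nln (log2FC 1.08, SE 0.27, adjusted p = 0.00237) were also called. The Nln call was lost with the glial covariate (adjusted p = 0.081), and its log2FC was under the fold minimum with limma on log2(RPKM + 1) (0.62) and without nonpeptidergic library 3 (0.97). Against A-fibre subtypes 0 were higher (12.9% of all genes were) and 3 lower (15.6%), Mme among them (log2FC -3.15, SE 0.21, adjusted p = 1.5e-12). The median log2FC of the peptidases was -0.17. Of 10 genes for related peptides, such as the tachykinin gene Tac2 and the bombesin-family gene Grp, 4 passed the filter on low counts. Grp, the nearest relative of Nmb, averaged at most 0.0994 CPM in any subtype and Tac2 at most 0.113 CPM. Sensory neurons here thus held Nmb rather than Grp among bombesin-family genes, and Tac1 rather than Tac2 among tachykinin genes, in all 8 subtypes.

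The genes with the pattern most like each member were found by Pearson's r of log2 CPM over the 26 libraries among 10751 genes. The libraries share subtypes and depth, so r describes these data and carries no p. Calca was most like Oprm1, the μ-opioid receptor (0.968), and genes close behind were Ica1l, Rims3 and Trpv1, the capsaicin receptor (0.918). Calcb was most like Zfhx2 (0.915), Lpcat1, Vstm5, Dgkh and Gpr155 (0.901). Tac1 was most like Cyfip2 (0.921), Pnp, Car8, Ptger1 and Adcy5 (0.900). The genes nearest to Calca thus included receptors for opioids and for heat.

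Adcyap1 was most like the transcription factor Bcl11a (0.935), Pde8b, Grin2d, Gpx3 and Dchs1 (0.877). Gal was most like Gfra3, the artemin receptor (0.910), Fxyd5, Csgalnact1, Tmbim1 and Lancl2 (0.847). Nmb was most like Insm2 (0.954), S100a6, the ATP-gated channel P2rx3, Prkca and Gna14 (0.937). Among the members themselves, r over the same 26 libraries was highest for Calca with Tac1 (0.867) and lowest for Adcyap1 with Nmb (0.010) and with Calcb (0.014). Over all libraries Nmb and Calcb thus had almost no linear relation to Adcyap1. Peptidergic nociceptors were high in Nmb, Calcb and Adcyap1 alike, whereas nonpeptidergic nociceptors were highest for Nmb and Calcb and lowest for Adcyap1.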

How the data were processed

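Per the labels' protocols, NuGEN amplification of RNA from sorted neurons preceded TruSeq library preparation. The authors deposited raw counts per Ensembl gene and RPKM per gene, with no per-sample column left unmapped; the submitters' processing notes list the mm10 build with FastQC 0.11.3, STAR and HTSeq 0.6.1, as well as Cuffdiff and DESeq2 1.14.1, and the role of each, and how RPKM lengths were set, is not given in the sources used here. Library quality was read from a summary the authors deposited, with rates as a fraction, a bias ratio, GC in percent and mapped reads as counts. The mapped reads were 19180452 to 106084755 per library.

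Counts were tested in R 4.3.3 with edgeR 4.0.16: filterByExpr by subtype, TMM, and a robust quasi-likelihood fit on subtype over all 26 libraries, checked on simulated counts. CPM used TMM-scaled totals, and log2 CPM a prior count of 2. Libraries of a subtype differed by more than counting noise, so each was kept as a replicate; p-values measure the spread between pools. DESeq2 1.42.0, limma 3.58.1 on log2 RPKM, other filters, covariates and leaving out each library were the alternatives. The members and gene lists were chosen with earlier results of these data known. All 6 members are named; list genes are the up to 3 per direction with the largest fold among those called at 5 CPM or more, and the 5 most like genes are named for each member, apart from 1 gene that is not reported here. A few pairs of subtypes that are not neighbours, and individual receptors near 0, were chosen after their values were seen. Promoters came from RefSeq, and gene positions and exon lengths from the GENCODE annotation of GRCm38. The glial covariate was the mean log2 CPM of 10 satellite glial genes, S100b among them.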

Additional observations from a re-analysis of the deposited data

Results flagged for a closer look

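Within the 5 Aβ RA-LTMR libraries, library 5 stood apart from the others for Gal, at 2.84 CPM against 0.599 to 1.07 CPM in the other 4. The gap was 0.792 of the range, above the Dixon critical value of 0.710 for 5 libraries, a value that chance passes in about 1 of 20 groups; 24 highest or lowest values of this subtype were read in this way. The same library also had the highest summed satellite glial genes of the 5, at 3979 CPM, and the highest Calca, Calcb, Tac1, Adcyap1 and Nmb. In the authors' quality summary its exonic rate, 45.7%, was the lowest of the 26 libraries, and its duplicate rate was 76.5%, against 65.5% to 72.2% in the other 4 of its subtype; the part of these in the Gal value was not tested.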

How the results depend on the processing

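Over 86 results and 3006 alternative values, 2927 kept their direction and side of the threshold (or moved little), 57 lost a call, 21 moved and 1 turned; for the members' 18 fold changes in the 3 class comparisons it was 673 of 684. Satellite glial genes as a covariate changed most. Beside the fold changes for peptidergic against nonpeptidergic nociceptors of 2.67 (Calca), 1.505 (Tac1), 3.00 (Gal) and -2.24 (Nmb), which missed the adjusted p but not the fold minimum, Gal against A-fibre subtypes came to 3.18 (adjusted p = 0.0521), Adcyap1 in C-LTMRs to 0.89, the pairs called to 11 for Calca and 15 for Tac1, the members called between nociceptor classes to 2, and the genes called to 2171 there and 2156 against A-fibre subtypes; the turned value was Gal in peptidergic nociceptors minus C-LTMRs, at -0.28, which was not called either way. The glial level differs by subtype, so its part and that of subtype cannot be told apart. With limma on log2(RPKM + 1), with and without a filter, Adcyap1 in C-LTMRs came to 0.93 in both, and genes called to 2826 and 2735 (nociceptor classes), 1189 and 1170 (C-LTMRs) and 1956 and 1950 (A-fibre subtypes); the cause was not tested. Leaving out 1 library in turn moved Adcyap1 in C-LTMRs between 0.95 and 1.18 and lost no other call of a member in the class comparisons. The replicate numbers of the labels did not pair the libraries: of 84 same-numbered pairs, 4 deviated together with r over 0.1 (range -0.154 to 0.239). With the number as a replicate block the Calca difference between nociceptor classes was 3.17, and no call of a member in the class comparisons changed; the pairs called came to 21 for Calca and 25 for Nmb, with equal counts for the other 4, and the genes called between nociceptor classes to 4673 against 4572.

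The shares of peptide RNA depend on length. As a share of summed counts, Nmb made up 33.8% in nonpeptidergic nociceptors, 17.9% in Aβ SA1-LTMRs and 22.6% in Aβ Field-LTMRs, and Calca 71.6% in peptidergic nociceptors and 51.4% in C-LTMRs. By CPM per kb of merged exons, an alternative chosen after seeing the data, Nmb made up 49.8% in nonpeptidergic nociceptors and 38.4% in Aβ Field-LTMRs, Calca 75.1% in peptidergic nociceptors and 53.2% in C-LTMRs, and Tac1 24.4% in proprioceptors. Depth limits receptors near 0 CPM more than the members, since the lowest member count was 20. Amplified pools of sorted cells give relative RNA levels, not peptide.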
